A study of Mus musculus with 96 samples.

Results

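The 10 genes described here belong to the integrated stress response and its secreted outputs: the transcription factors Atf4, Atf3 and Ddit3, the effector and feedback genes Chac1, Trib3, Asns, Sesn2 and Ppp1r15a, and the hormone genes Gdf15 and Fgf21. They were taken by gene symbol from the deposited expression table, in which all 10 were found among 21990 genes, 20155 of them with values. The table covers 48 male C57BL/6N mice, bought at 4 weeks of age and fed either a chow diet (CD, a standard LabDiet chow, 13.5% fat) or a high-fat diet (HFD, Research Diets D12492, 60% fat). Each mouse gave 1 library of pancreatic islets and 1 of liver, after feeding for a number of weeks that rose from 4 to 24 in steps of 4, with 4 mice per diet and week and thus 96 libraries in 24 groups. No mouse carried an engineered allele, each library came from 1 mouse, and the CD was a grain-based chow that is not matched to the HFD in its ingredients.

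In the integrated stress response, the kinases PERK, GCN2, PKR and HRI phosphorylate the translation initiation factor eIF2α, which lowers general protein synthesis while the mRNA of ATF4 is translated more efficiently. ATF4 then binds, often with C/EBP family partners, to the promoters of genes for amino acid supply and for feedback, and PPP1R15A closes the loop by directing a phosphatase to eIF2α. Because ATF4 is set largely at translation, the level of Atf4 mRNA does not report the activity of the factor. GDF15 and FGF21 are circulating hormones that stressed tissues secrete. GDF15 signals through GFRAL and RET in the hindbrain, and FGF21, which comes mostly from the liver and is also a target of the fatty acid receptor PPARα, signals through β-Klotho (KLB) and FGF receptors.

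The promoter windows of these genes in RefSeq (GRCm38.p6, from 250 bases before to 50 bases after the start of transcription) were searched on both strands for the composite site of C/EBP and ATF factors, TGATGNAA, and for the cyclic AMP response element, TGACGTCA. The composite site was present in windows of 5 members, namely Atf3, Trib3, Chac1, Asns and Fgf21, and in 3.97% of all 32851 windows, whereas the cyclic AMP response element was present in that of Ppp1r15a and in 1.79% of all windows. Neither sequence was found in the windows of Atf4, Ddit3, Sesn2 or Gdf15, which says only that these letters are not in these stretches. The match in Trib3 began 15 bases after the start. The following lines give the 60 bases around the upstream matches, 5′ to 3′ on the strand of the gene, because they show the composite site of Atf3, Chac1, Fgf21 and Asns beside the other element in Ppp1r15a; capitals mark the matched motif, which reads as its reverse complement in Atf3, Chac1 and Fgf21.
Atf3 (chr1:191183404-191183463, minus strand): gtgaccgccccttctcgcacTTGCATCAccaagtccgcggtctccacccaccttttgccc
Chac1 (chr2:119351029-119351088, plus strand): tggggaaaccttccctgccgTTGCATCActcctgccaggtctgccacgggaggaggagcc
Fgf21 (chr7:45615590-45615649, minus strand): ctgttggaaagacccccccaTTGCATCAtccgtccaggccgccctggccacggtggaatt
Asns (chr6:7693210-7693269, minus strand): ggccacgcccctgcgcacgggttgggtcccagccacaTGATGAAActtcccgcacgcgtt
Ppp1r15a (chr7:45526269-45526328, minus strand): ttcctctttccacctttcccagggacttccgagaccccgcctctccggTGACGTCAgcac

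Values are FPKM, fragments scaled to transcript length and to the mapped reads of the library, which can be compared between genes because they are divided by transcript length. Read counts and depth are not part of the table, so no counting interval is given. Hepatocyte markers such as Alb and Apoa1 summed to at least 37691 FPKM in every liver, and beta cell markers such as Ins1 and Ins2 to at least 576919 FPKM in every islet library, so both tissues matched their labels. Insulin transcripts took up between 23.5% and 39.1% of an islet library, a share that scales down all other islet values. In liver, the beta cell markers summed to 3775 FPKM in CD306 and 2621 FPKM in CD407, against a CD median of 124. The median sum was 119 FPKM in HFD livers, where the medians of Ins1, Ins2 and Iapp were under 0.1 FPKM. A sum of that size thus does not by itself report beta cell RNA. CD306 was also high in liver Atf3 and Fgf21 at week 12, and without it the Atf3 difference of that week passed (limma adjusted p = 0.0247, against 0.179 with it). The part of the beta cell markers in these values was not tested. All tissue values are from bulk RNA, in which a change in the number of cells of a type cannot be told apart from a change in RNA per cell.

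In chow-fed liver, Atf4 was the most abundant member with a median of 49.4 FPKM over 24 mice and a range of 40.8 to 75.9 FPKM, which did not overlap the range of any other member. Gdf15 followed with a median of 8.31 FPKM (1.29 to 38.6), Ddit3 with 7.69, Ppp1r15a with 5.255, Trib3 with 4.425, Chac1 with 2.84, Sesn2 with 2.085, Fgf21 with 1.99 (0.23 to 20.2), Asns with 0.71 and Atf3 with 0.435 FPKM. From Gdf15 downwards each gene overlapped its neighbour in this order. In chow-fed islets the order was different. Atf4 again came first with a median of 116.825 FPKM, and Asns, the enzyme that makes asparagine, came next with 68.2 FPKM (54.7 to 101.8). Ddit3 (23.8 FPKM), Sesn2 (19.2), Chac1 (16.0) and Ppp1r15a (13.9) lay in the middle and overlapped one another, Trib3 was at 3.115 FPKM, and Fgf21 (0.52), Gdf15 (0.43) and Atf3 (0.305) lay under 1 FPKM.

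Between the tissues of chow-fed mice, Asns showed the widest gap of the members, with an islet level 5.19 ± 0.11 (SE) above the liver on the log2(FPKM + 1) scale, on which all differences below are given (limma adjusted p = 5.84e-35). Sesn2, which restrains mTORC1 when leucine is scarce, was higher in islets by 2.69 ± 0.07, Chac1, which degrades glutathione, by 2.08 ± 0.16, Ddit3, which encodes the factor CHOP, by 1.58 ± 0.11, Ppp1r15a by 1.27 ± 0.07 and Atf4 by 1.11 ± 0.08. Gdf15 was higher in liver, with an islet minus liver difference of -2.47 ± 0.25, as was Fgf21 with -0.98 ± 0.21. Atf3 gave -0.42 ± 0.17 and the pseudokinase gene Trib3 -0.28 ± 0.11, and with insulin left out of the islet total Atf3 no longer passed (-0.30, limma adjusted p = 0.0981) and Trib3 turned to 0.09 (limma adjusted p = 0.438). All 10 members passed the test, and so did 95.4% of the 13074 genes tested, whose median difference was 0.66, or 1.00 with insulin left out and 0.04 after median ratio scaling. Relative to these medians, all 10 members kept their direction under each of these scalings, Trib3 and Atf3 being lower in islets.

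**Figure D1:**
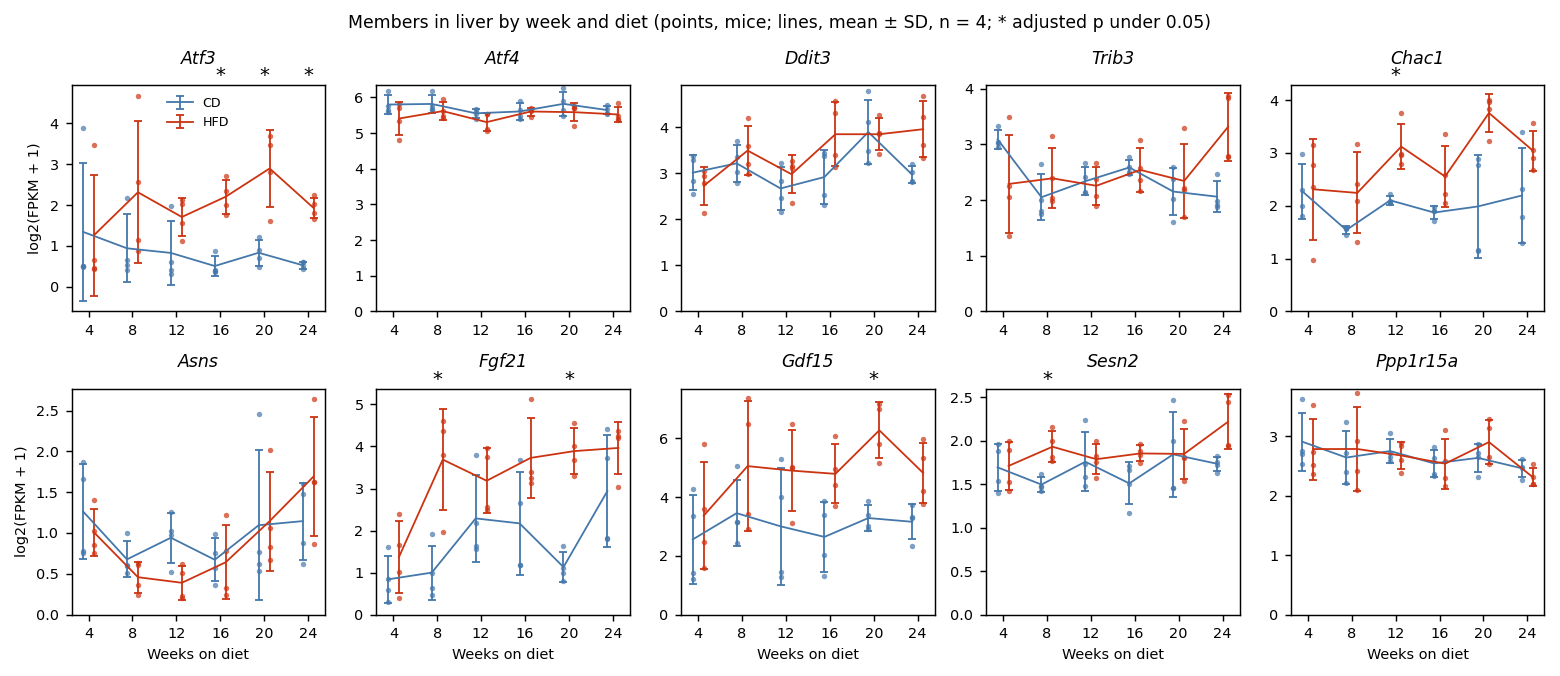
Level of the 10 members in liver, as log2(FPKM + 1), against weeks on diet. Points are mice, lines join the means of 4 mice with bars of 1 SD, blue is CD, red is HFD, and asterisks mark weeks with an adjusted p under 0.05. In 15 of the 55 member-weeks tested all 4 HFD mice lay above all 4 CD mice, against 9.75% of all genes and weeks tested. In none did they lie below, against 2.6%.

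In liver, both hormone genes, Atf3 and Chac1 showed the largest rises with HFD, and Atf4 was slightly lower when the weeks were averaged. Within single weeks, 8 of the 55 tests of a member passed, all towards higher levels in HFD: Fgf21 at week 8 and 20, Gdf15 at week 20, Atf3 at week 16, 20 and 24, Chac1 at week 12 and Sesn2 at week 8. No member passed towards lower levels, and none did so at an unadjusted p under 0.05 either. Of all genes tested, the share that passed was 0.0506% in week 4, when no member passed, then 7.49%, 10.6%, 7.43% and 2.47% in the weeks that followed, and 0.837% in week 24. The HFD and CD mice of a week did not overlap, with HFD above, in 15 of the 55 member-weeks, against 9.75% of all genes and weeks tested, and in 0 with HFD below, against 2.6%. A gene was tested in a week if 4 of the 8 libraries held at least 1 FPKM. Fgf21 reached 1 FPKM in 16 of 24 CD and 23 of 24 HFD livers. At week 8 and 20 it met the filter mainly through its HFD mice, which favours a higher call. Atf3 reached 1 FPKM in 4 of 24 CD and 20 of 24 HFD livers and thus was tested in 5 weeks, mainly, and at week 16 and 24 solely, through its HFD mice, and Asns was tested at week 4 and 24 alone.

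Gdf15 (chr8:70629393-70632470) varied widely between mice of a group. At week 20 the HFD livers held 141, 34.7, 126 and 54.6 FPKM and the CD livers 9.43, 13.4, 6.5 and 7.02 FPKM. Every HFD mouse was thus above every CD mouse, with a 9.80-fold ratio of the means (89.2 ± 52.4 against 9.10 ± 3.16 FPKM, SD, n = 4). The difference of 2.99 ± 0.46 (SE) passed (limma adjusted p = 0.0210), but it passed in only 4 of the 8 fits without 1 library and was lost whenever a CD mouse was left out (highest limma adjusted p = 0.0783). At week 24 the groups did not overlap either, with 62.5, 12.6, 38.9 and 17.5 FPKM in HFD and 3.99, 12.2, 8.91 and 8.76 FPKM in CD, although the test was not passed (1.66 ± 0.51, limma adjusted p = 0.174). At week 8 the HFD livers split into 2 high (89.1 and 165 FPKM) and 2 low mice (9.85 and 6.51 FPKM) that overlapped the CD range of 4.47 to 32.5 FPKM. At week 4, 1 HFD mouse stood at 55.3 FPKM while the other 3 lay between 2.03 and 11.1 FPKM. The CD livers of that week held 18.5, 1.64, 1.29 and 9.16 FPKM, and without the high HFD mouse, HFD118, the difference of 0.81 became -0.0071. HFD means were above CD means at each of the 6 weeks, at week 4 through that mouse alone.

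Fgf21 (chr7:45613890-45619350 in the deposited table, and 45613890-45615490 in RefSeq, from which the promoter window was taken) was separated at 2 weeks. At week 8 the HFD livers held 19.8, 23.4, 12.99 and 2.90 FPKM against 2.75, 0.56, 0.97 and 0.38 FPKM in CD. The lowest HFD mouse lay just above the highest CD mouse, and the ratio of the means was 12.7 (2.69 ± 0.59, limma adjusted p = 0.0366, held in 2 of 8 fits without 1 library). At week 20 the values were 22.7, 8.76, 15.3 and 11.9 FPKM in HFD and 0.97, 0.75, 2.09 and 1.15 FPKM in CD, an 11.8-fold ratio that passed in all 8 fits without 1 library (2.76 ± 0.27, limma adjusted p = 0.00246). In both weeks some CD mice lay under 1 FPKM, so Fgf21 was tested there mainly through its HFD mice. Fgf21 also varied among CD mice. Their week means ran from 0.90 FPKM at week 4 to 9.39 FPKM at week 24, when 2 CD mice held 12.3 and 20.2 FPKM beside 2.48 and 2.53 FPKM in the other 2. At week 24 the HFD mean was 15.6 ± 5.67 FPKM (SD, n = 4) and the difference did not pass (1.03 ± 0.65, limma adjusted p = 0.509).

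Atf3 (chr1:191170296-191183333), a factor that is induced by ATF4 and by many acute signals, was higher in HFD at the 3 late weeks. At week 16 the HFD livers held 5.56, 2.97, 2.39 and 4.10 FPKM and the CD livers 0.30, 0.84, 0.32 and 0.29 FPKM (1.70 ± 0.21, limma adjusted p = 0.00163). At week 24 the HFD livers held 2.48, 2.16, 3.72 and 3.05 FPKM and the CD livers 0.41, 0.34, 0.51 and 0.51 FPKM (1.40 ± 0.13, limma adjusted p = 0.00212). Both differences passed in all 8 fits without 1 library, but not when all 12 groups of the tissue were fitted together (limma adjusted p = 0.103 at week 16 and 0.255 at week 24). No CD liver of either week reached 1 FPKM, so Atf3 was tested there through its 4 HFD mice alone. Without the filter both still passed (limma adjusted p = 0.00373 at week 16 and 0.00583 at week 24). At week 20 the HFD values of 10.1, 6.01, 11.8 and 2.06 FPKM again all exceeded the CD values of 0.40 to 1.34 FPKM, but the call (2.06 ± 0.42, limma adjusted p = 0.0456) held in 1 of 8 such fits and was lost without the filter (limma adjusted p = 0.0651). In the early weeks single mice of both diets stood far above the rest, namely 13.8 FPKM in a CD mouse and 10.2 FPKM in an HFD mouse at week 4, where the other 6 lay between 0.36 and 0.58 FPKM, and 24.6 FPKM in an HFD mouse at week 8.

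Chac1 (chr2:119351242-119354326) passed at week 12, with 6.79, 6.86, 12.5 and 5.95 FPKM in HFD against 3.66, 3.13, 3.18 and 3.24 FPKM in CD (1.02 ± 0.18, limma adjusted p = 0.0145). The groups did not overlap, and the call was lost in 1 of 8 fits without 1 library, that of CD307 (limma adjusted p = 0.0523), and in the fit of all 12 groups (limma adjusted p = 0.0879). The HFD mice also lay above the CD mice at week 16 and at week 20, when the ratio of means was widest at 3.51, without passing (limma adjusted p = 0.0886 at week 20). Sesn2 passed at week 8, with 3.45, 2.51, 2.99 and 2.40 FPKM in HFD against 1.78, 1.77, 2.07 and 1.68 FPKM in CD. The difference was small (0.44 ± 0.10, limma adjusted p = 0.0354) and held in 1 of 8 fits without 1 library. It was lost without the filter (limma adjusted p = 0.0568) and in the fit of all 12 groups (limma adjusted p = 0.156). Its groups also did not overlap at week 16 and 24.

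Trib3 and Ddit3 separated by diet only at the end of the series and did not pass. At week 24 Trib3 stood at 5.85, 13.3, 13.6 and 5.88 FPKM in HFD and at 2.77, 2.93, 2.68 and 4.55 FPKM in CD (1.25 ± 0.28, limma adjusted p = 0.0869, or 0.0207 when all 12 groups of the tissue were fitted together). At week 4 it had been 4.68 ± 3.83 FPKM in HFD and 7.57 ± 1.05 FPKM in CD (SD, n = 4). Ddit3 at week 24 was 11.2, 24.6, 17.7 and 9.00 FPKM in HFD and 6.08, 6.06, 8.20 and 7.18 FPKM in CD (0.99 ± 0.26, limma adjusted p = 0.119). Ppp1r15a overlapped between the diets in all 6 weeks, with HFD week means of 3.99 to 6.67 FPKM and CD week means of 4.54 to 6.88 FPKM. Asns remained at 5.26 FPKM or less in every liver.

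Averaged over the 6 weeks in 1 fit of the 48 livers, 6 of the 10 members were higher in HFD and 1 was lower, against 35.8% of all 10879 genes higher, 6.78% lower and 42.6% called in either direction. The median effect was 0.29 over the members and 0.08 over all genes. Gdf15 rose by 1.85 ± 0.39 (SE, limma adjusted p = 0.000216), Fgf21 by 1.58 ± 0.25 (limma adjusted p = 4.61e-06), Atf3 by 1.22 ± 0.27 (limma adjusted p = 0.000383) and Chac1 by 0.84 ± 0.17 (limma adjusted p = 0.000109). The rises of Ddit3 (0.36 ± 0.14, limma adjusted p = 0.0332) and Sesn2 (0.22 ± 0.07, limma adjusted p = 0.0152) were smaller and were lost after median ratio scaling, with limma adjusted p = 0.126 and 0.156. Atf4 fell by 0.20 on the same scale (SE 0.07, limma adjusted p = 0.0224), and by 0.31 after median ratio scaling. Trib3 (0.14 ± 0.13), Ppp1r15a (0.01 ± 0.11) and Asns (-0.08 ± 0.14) did not pass. Left out 1 mouse at a time, the calls of Gdf15, Fgf21, Atf3, Chac1, Sesn2 and Atf4 held in all 48 fits and that of Ddit3 in 39. The test of late weeks (16, 20 and 24) against early weeks (4, 8 and 12) gave no member, beside 0.175% of all genes. At an unadjusted p under 0.05 it gave 1 member, Trib3 (0.65 ± 0.27, limma adjusted p = 0.503), beside 860 of all 10879 genes.

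**Figure D2:**
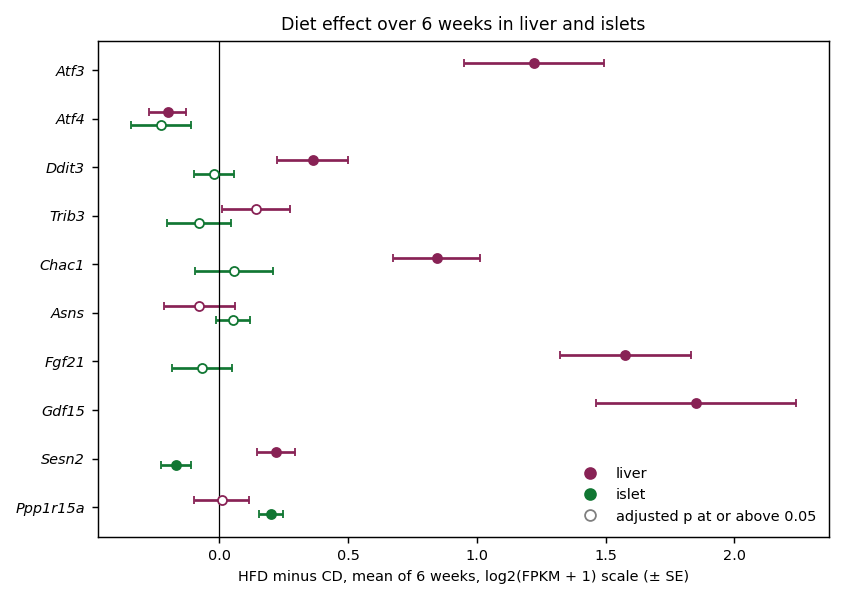
Difference between HFD and CD averaged over 6 weeks on the log2(FPKM + 1) scale, with bars of 1 SE, for liver (purple) and islets (green); filled points have an adjusted p under 0.05. Gdf15, Fgf21, Atf3 and Chac1 lie between 0.84 and 1.85 in liver, and all islet points lie between -0.23 and 0.20.

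Other gene groups were counted in the same liver fit, in which 35.8% of all genes were higher in HFD and 6.78% lower. Of the 12 immediate early genes, which acute signals switch on within minutes, 4 rose over the 6 weeks, a count near that share. They were led by Jun (1.36 ± 0.47), Btg2 (1.14 ± 0.34) and Klf6 (0.81 ± 0.11), and the list median was 0.42. Their summed level was 78.3 to 593 FPKM in CD livers and 75.8 to 912 FPKM in HFD livers. With the mean level of these genes as a covariate, an alternative added after the data were seen, the effect of Gdf15 was 1.02 ± 0.19 (limma adjusted p = 5.77e-05) and that of Atf3 0.67 ± 0.15 (limma adjusted p = 0.000493), while Fgf21 kept 1.34 ± 0.25 and Chac1 0.69 ± 0.17. The calls of Ddit3 and Atf4 were lost there, and Ppp1r15a passed at -0.19 ± 0.07 (limma adjusted p = 0.0352). Macrophage markers rose in 9 of 10, and their sum was 65.8 to 203.5 FPKM in CD and 74.3 to 432 FPKM in HFD livers. With the mean of these markers as a covariate, also added later, Gdf15 (1.69 ± 0.60, limma adjusted p = 0.0466) and Fgf21 (1.64 ± 0.39, limma adjusted p = 0.00378) passed, whereas Atf3 (0.99 ± 0.41, limma adjusted p = 0.0888) and Chac1 (0.66 ± 0.26, limma adjusted p = 0.0671) did not. Of all 10879 genes, 4630 were called without a covariate, 4037 with the immediate early covariate and 1931 with the macrophage covariate. Whether the immediate early genes or the macrophage markers have a part in the diet effects was not tested.

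**Figure D3:**
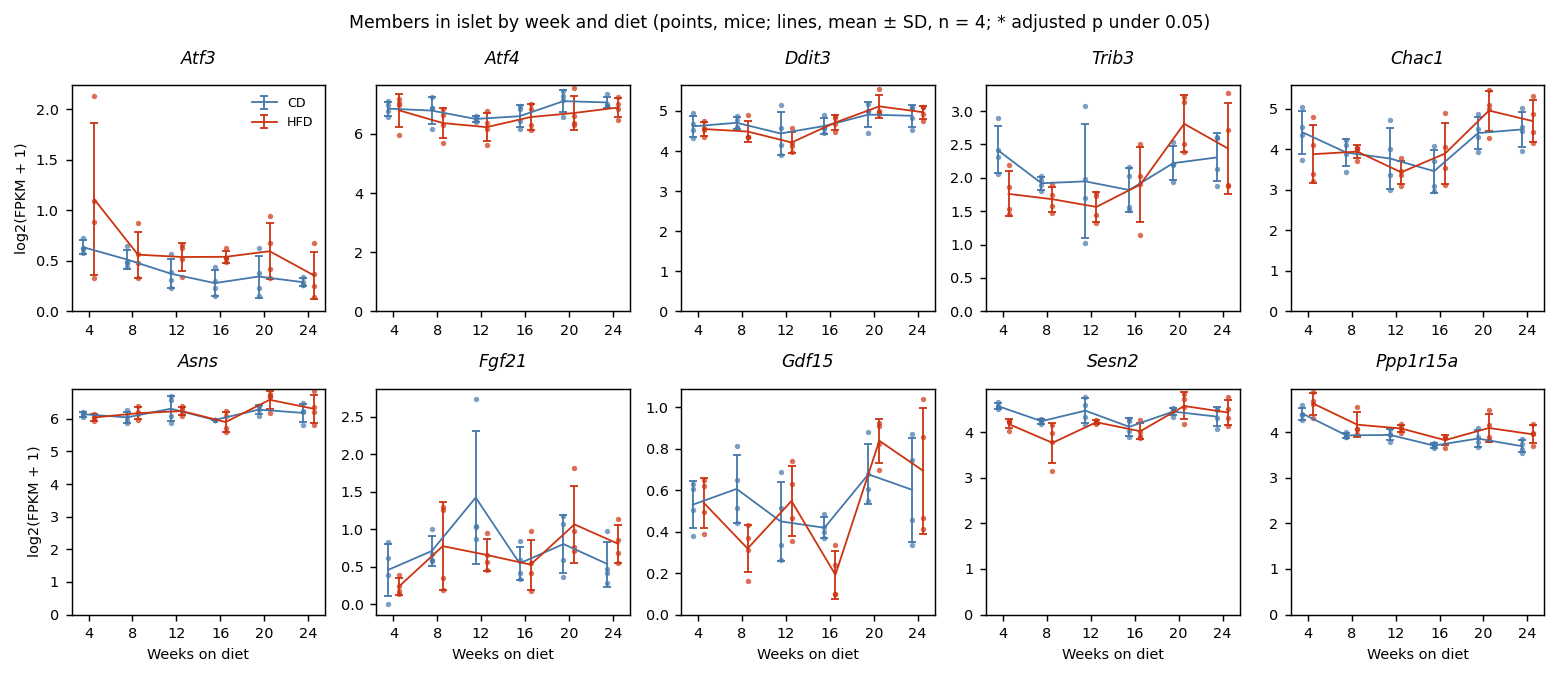
Level of the 10 members in islets, as log2(FPKM + 1), against weeks on diet, drawn as for liver (points, mice; lines, means of 4 mice with bars of 1 SD; blue, CD; red, HFD). No week carries an asterisk. The mice of the diets are separate for Sesn2 at week 4 and 8, for Gdf15 at week 8 and 16 with HFD below, and for Atf3 at week 16 with HFD above.

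In islets no member passed in any week. Among the 42 member-weeks tested, 8 had an unadjusted p under 0.05, of which 3 were higher and 5 lower in HFD. Of all genes, 854 of 11569 had an unadjusted p under 0.05 in week 4, 3362 of 11636 in week 8 and 1968 of 11286 in week 12. These counts were 2717 of 11691 in week 16, 3004 of 11704 in week 20 and 2734 of 11709 in week 24. The share of all genes passing after adjustment was 0.0% in week 4, then 5.27%, 4.53%, 8.45% and 4.74% in the weeks that followed, and 8.3% in week 24. Atf3, Gdf15 and Fgf21 were under the filter in every week. Gdf15 stayed between 0.07 and 1.06 FPKM in all 48 islet libraries and Atf3 at or under 3.40 FPKM. Groups did not overlap in 2 of the member-weeks tested, both of Sesn2 with HFD below CD, and in 0 with HFD above, against 7.18% and 5.85% of all genes and weeks. Among the weeks under the filter, the islet groups of Atf3 at week 16 (HFD above) and of Gdf15 at week 8 and 16 (HFD below) did not overlap either, all at under 1 FPKM. At week 4 Sesn2 was 17.8, 17.5, 17.8 and 15.3 FPKM in HFD and 21.6, 24.4, 22.4 and 22.8 FPKM in CD (limma adjusted p = 0.550). At week 8 it was 12.8, 7.88, 16.7 and 14.7 FPKM in HFD and 18.6, 18.3, 17.7 and 16.95 FPKM in CD (limma adjusted p = 0.148).

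Over the 6 weeks, 2 of the 8 members tested in islets passed, in opposite directions, against 16.6% of 12378 genes higher, 22.0% lower and 38.6% in either direction. Ppp1r15a was higher in HFD by 0.20 ± 0.05 (limma adjusted p = 0.000995), with week means of 13.2 to 24.0 FPKM in HFD and 12.0 to 20.3 FPKM in CD, and the HFD mean was above the CD mean in all 6 weeks. Sesn2 fell by 0.17 (SE 0.06, limma adjusted p = 0.0243), a call that leaving insulin out of the total removed (-0.09, limma adjusted p = 0.245). Atf4 gave -0.23 ± 0.12 (limma adjusted p = 0.1225), a difference of the same size as in liver that did not pass. Asns, Chac1, Ddit3, Trib3 and Fgf21 gave between -0.08 and 0.06. Sesn2 was also the only member whose diet effect differed between late and early weeks in islets (0.41 ± 0.12, limma adjusted p = 0.0453, beside 3.16% of all genes). That call held in 16 of 48 fits without 1 mouse and was lost with insulin left out (limma adjusted p = 0.139) and after median ratio scaling (limma adjusted p = 0.0796). The cell type markers of these islets moved with the diet too. All 6 alpha cell and all 4 delta cell markers were lower in HFD, with list medians of -0.995 and -1.09, as were 6 of 15 acinar markers, of which 1 was higher. Their part in the values of Ppp1r15a and Sesn2 was not tested.

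The diet effects of the same mice were then compared between the tissues, from the islet minus liver difference of each mouse. Of the 8 members that could be tested, 4 differed, beside 41.8% of all 9936 genes, and each had the larger value in liver: Fgf21 by -1.64 ± 0.29 (limma adjusted p = 3.225e-05), Chac1 by -0.79 ± 0.23 (limma adjusted p = 0.00585), Sesn2 by -0.39 ± 0.09 (limma adjusted p = 0.000742) and Ddit3 by -0.38 ± 0.12 (limma adjusted p = 0.0105). The call of Ddit3 was lost without pairing (0.0507) and with insulin left out (0.0588), and the test was not passed after median ratio scaling either. Ppp1r15a gave 0.19 ± 0.08 (limma adjusted p = 0.0616) and passed after median ratio scaling (0.32, limma adjusted p = 0.00294). With insulin left out of the total Ppp1r15a passed as well (0.28, limma adjusted p = 0.00912). Gdf15 and Atf3 were too low in islets to be tested with the filter. Without it, they gave -1.88 (limma adjusted p = 0.000152) and -1.01 (limma adjusted p = 0.000734). The islet medians were 0.415 FPKM for Gdf15, 0.39 for Atf3 and 0.52 for Fgf21, where the scale compresses any islet change. The differences of Gdf15, Atf3 and Fgf21 thus largely restate their liver effects of 1.85, 1.22 and 1.58 with the sign reversed.

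**Figure D4:**
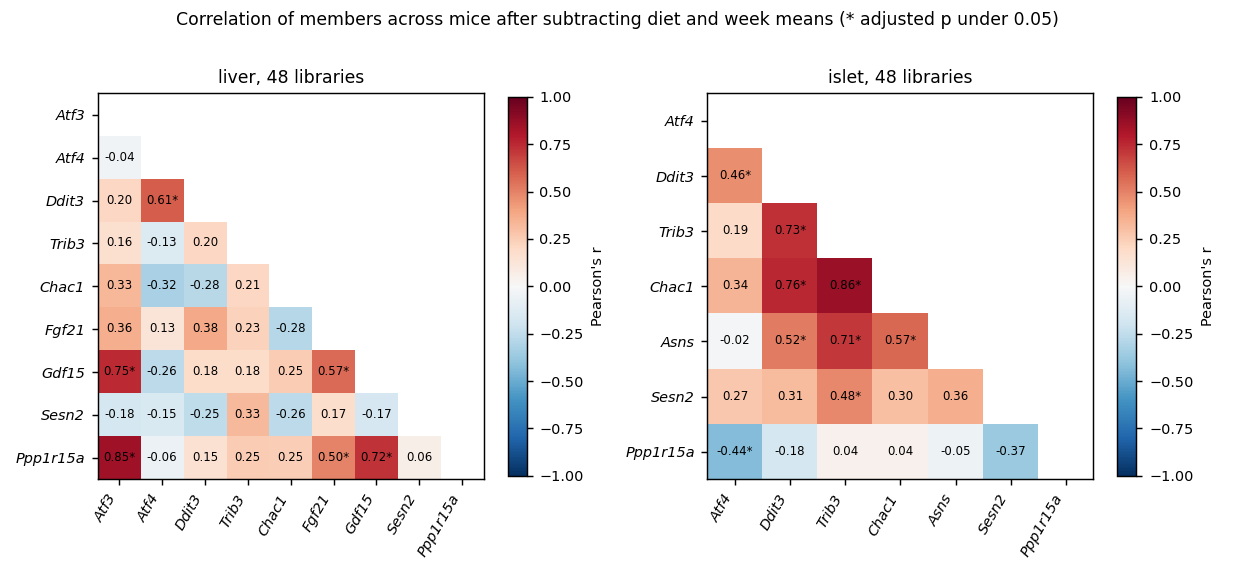
Pearson's r of each pair of members across 48 libraries of liver (left) and of islets (right), after centring on the group of the same diet and week; only members with a median of at least 1 FPKM in the tissue are drawn, and asterisks mark an adjusted p under 0.05. In liver Atf3, Gdf15 and Ppp1r15a form 1 block with r of 0.72 to 0.85, and in islets Ddit3, Trib3, Chac1 and Asns form another with r of 0.52 to 0.86.

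Some pairs of members also moved together from mouse to mouse once diet and week were removed. The share of passing pairs among other genes was not computed, so the counts below have no background. Atf3, Gdf15 and Fgf21 could be paired in liver alone because their medians in islets were under 1 FPKM, and Asns in islets alone because its median in liver was under 1 FPKM, so the pairs of the 2 tissues are not the same set and were not tested against each other. In liver, 6 of 36 pairs passed a permutation test of libraries within groups (100000 permutations, two-sided, adjusted over the pairs), all with positive r. The highest r was that of Atf3 with Ppp1r15a (r = 0.85, Spearman's rho = 0.71, permutation p = 1e-05, the smallest the test can give, adjusted p = 0.00018). Atf3 with Gdf15 gave r = 0.75 (rho = 0.70, permutation p = 2e-05, adjusted p = 0.00024) and Gdf15 with Ppp1r15a r = 0.72 (rho = 0.66, permutation p = 1e-05, adjusted p = 0.00018). Without the 2 libraries farthest from the median of the gene named first, these were 0.76, 0.71 and 0.64. The other 3 were Atf4 with Ddit3 (r = 0.61), Fgf21 with Gdf15 (r = 0.57) and Fgf21 with Ppp1r15a (r = 0.50). Chac1 was in no pair that passed in liver, and its r with Fgf21 was -0.28.

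In islets, 9 of 21 pairs passed, 8 of them positive. Trib3 with Chac1 was highest (r = 0.86, rho = 0.87, permutation p = 1e-05, adjusted p = 7e-05), followed by Ddit3 with Chac1 (r = 0.76, rho = 0.77, permutation p = 1e-05, adjusted p = 7e-05) and Ddit3 with Trib3 (r = 0.73, rho = 0.72, permutation p = 1e-05, adjusted p = 7e-05). Without the 2 farthest libraries they were 0.85, 0.70 and 0.61. Asns joined this set with r of 0.71 with Trib3, 0.57 with Chac1 and 0.52 with Ddit3. Atf4 with Ddit3, which passed in liver, passed in islets too (r = 0.46, rho = 0.53, permutation p = 0.00063, adjusted p = 0.0022), as did Trib3 with Sesn2 (r = 0.48). The pair of Trib3 and Chac1 gave r = 0.21 in liver (permutation p = 0.304, adjusted p = 0.413); the difference between the tissues was not tested. Atf4 with Ppp1r15a was the negative pair (r = -0.44, rho = -0.37, permutation p = 0.0182, adjusted p = 0.0423), and it did not pass by Spearman's rho, after median ratio scaling or without the 2 farthest libraries (r = -0.30, adjusted p = 0.153).

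**Figure D5:**
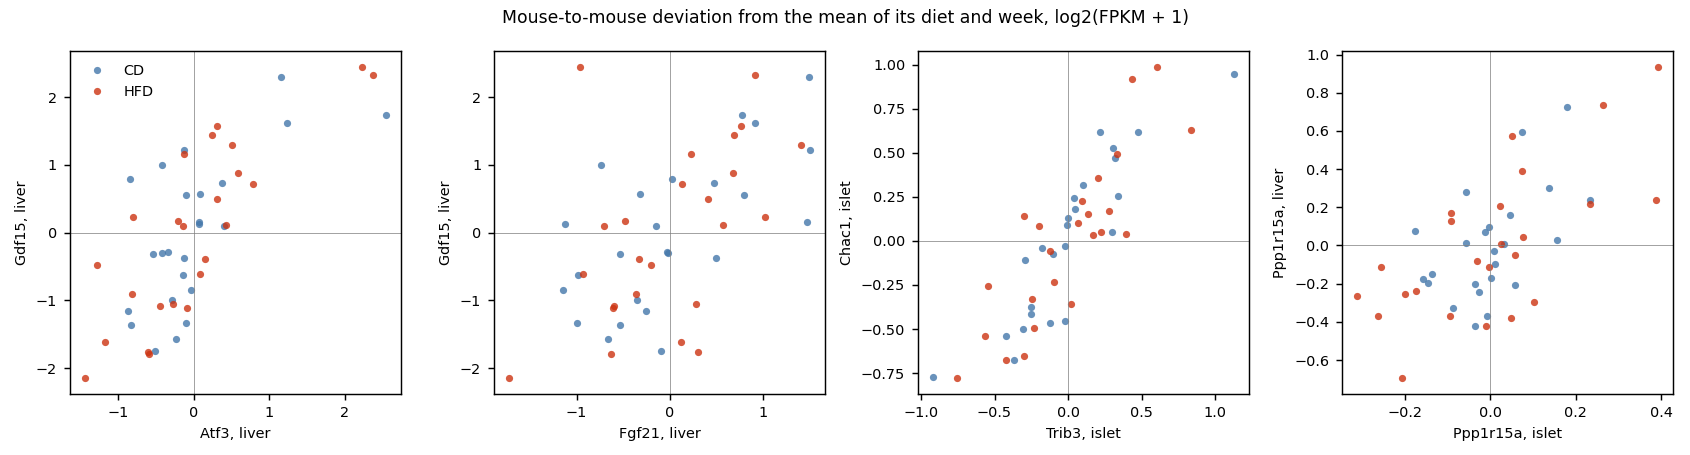
Deviation of each of 48 mice from the mean of its diet and week on the log2(FPKM + 1) scale, for Gdf15 against Atf3 and Gdf15 against Fgf21 in liver, Chac1 against Trib3 in islets, and Ppp1r15a in liver against Ppp1r15a in islets (blue, CD; red, HFD). Pooled over both diets, r was 0.75, 0.57, 0.86 and 0.65.

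The same gene was compared between islet and liver of a mouse for the 6 members above 1 FPKM in both tissues. Ppp1r15a was correlated across tissues (r = 0.65, rho = 0.59, permutation p = 5e-05, adjusted p = 0.0003, and 0.56 without the 2 farthest mice), as was Ddit3 (r = 0.48, rho = 0.52, permutation p = 0.00155, adjusted p = 0.00465, and 0.42 without the 2 farthest mice). Atf4 gave r = 0.40 (rho = 0.38, permutation p = 0.0264, adjusted p = 0.0528). Trib3, Sesn2 and Chac1 gave r between -0.01 and 0.16 and did not pass. Islets were digested with collagenase and picked by hand, and liver was frozen at once. Both tissues came from 1 dissection of a mouse. The part of handling or dissection in these correlations was not tested.

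Across the 48 livers, the 5 of 10878 other genes whose deviations were most like those of Gdf15 were Jun (r = 0.89), Egr1 (0.86), Fos (0.85), Btg2 (0.85) and Cyr61 (0.85), which are immediate early genes. For Atf3 they were the nuclear receptor gene Nr4a1 (r = 0.93), Jund (0.88), Btg2 (0.86), the member Ppp1r15a (0.85) and Trib1 (0.83). Fgf21 had other neighbours, namely Phospho1 (r = 0.77), Cpt1b (0.77), which imports fatty acids into mitochondria, Chkb (0.75), which lies beside Cpt1b in the genome, Arl4a (0.75) and Igsf11 (0.73). For Chac1 they were Socs3 (0.67), Lurap1l (0.66), Stat3 (0.64), the zinc transporter gene Slc39a14 (0.61) and the chemokine gene Cxcl1 (0.61), of which Socs3 and Stat3 belong to interleukin-6 signalling. For Sesn2 they were Ilvbl, Pi4ka, Ppm1a, Tbc1d20 and Rab34 (0.72 to 0.74). Ranked by r with Gdf15 among the 10878 genes, Atf3 came at 15, Ppp1r15a at 18, Fgf21 at 62 and Chac1 at 1877. Ddit3 came at 3005, Trib3 at 3049, Asns at 7264, Sesn2 at 9025 and Atf4 at 9958. These values describe libraries that share tissue, depth and dissection and carry no test.

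The wider pathway was read from lists of genes with known roles, whose counts stand beside 35.8% of all genes higher and 6.78% lower in HFD liver, with a median of 0.08. The log2(FPKM + 1) scale compresses the changes of low genes. Of 7 enzymes of serine, glycine and one-carbon metabolism 5 were tested and were higher over the 6 weeks, led by Mthfd1l (0.60 ± 0.07), Psat1 (0.56 ± 0.08) and Mthfd2 (0.37 ± 0.08), all with HFD medians under 1 FPKM. These 3 reached 1 FPKM in 8 to 10 HFD livers and in at most 1 CD liver and so were tested through HFD, which favours a higher call, while Psph and Shmt2 reached it in all 24 livers of each diet. Of 12 tRNA synthetase genes 8 were higher (median 0.15), led by Wars (0.26 ± 0.07), Gars (0.24 ± 0.04) and Nars (0.21 ± 0.05). Among initiation kinases and factors, 4 of 11 were higher (median 0.07), led by Eif2ak3, which encodes PERK (0.34 ± 0.08), Eif2s1 (0.17 ± 0.05) and Eif2ak2, which encodes PKR (0.16 ± 0.06). Of 5 bZIP partners, Nupr1 (0.93 ± 0.13) and Cebpg (0.23 ± 0.06) were higher. Other targets of ATF4 split, with 5 higher and 1 lower of 10 tested of 12 listed. The lipoprotein receptor gene Vldlr (0.64 ± 0.07, median 0.11 FPKM in CD and 0.89 FPKM in HFD) and Fam129a (0.37 ± 0.05) rose. No CD liver held 1 FPKM of either gene, against 11 HFD livers for Vldlr and 8 for Fam129a. Both were thus tested through HFD alone, which favours a higher call. The transsulfuration gene Cth fell by 0.41 (SE 0.11). The 1 called of 4 tested amino acid transporters of 7 listed, Slc38a2, fell by 0.37 (SE 0.10).

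Groups tied to the hormones moved in both directions. Of the 10 genes of PPARα and its targets, 8 were higher in HFD liver (median 0.42), led by Vnn1 (1.65 ± 0.17, median 18.5 FPKM in CD and 81.2 FPKM in HFD), Pdk4 (1.43 ± 0.41) and Cyp4a14 (1.19 ± 0.35). Of the 7 receptor genes listed for GDF15 and FGF21, 5 were tested, namely Klb and the FGF receptor genes. Gfral and Ret, the receptor genes for GDF15, had liver medians under 0.1 FPKM and were not tested. Of the 5 tested, 4 were lower (median -0.27). Fgfr1 fell by 0.52 (SE 0.08), the co-receptor gene Klb by 0.30 (SE 0.09) and Fgfr4, the main FGF receptor of hepatocytes, by 0.27 (SE 0.06). Of 10 chaperones of the endoplasmic reticulum, Pdia4 (0.49 ± 0.15) and Dnajc3 (0.21 ± 0.08) were higher. Of 5 heat shock genes 4 were higher (median 0.67), led by Hspb1 (1.04 ± 0.12), Hspa1a (0.91 ± 0.23) and Hspa1b (0.67 ± 0.28), and reads of Hspa1a and Hspa1b, which are nearly identical, can be split between them.

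In islets the counts of the same lists stand beside 16.6% of all genes higher and 22.0% lower. Of 5 tested receptor genes 4 were lower in HFD (median -0.43), led by Fgfr3 (-0.51 ± 0.07), Klb (-0.50 ± 0.05) and Fgfr4 (-0.43 ± 0.05). Medians in CD and HFD were 1.39 and 0.495 FPKM for Fgfr3, 1.67 and 0.885 for Klb, and 1.125 and 0.55 for Fgfr4. All of these HFD medians lay under the filter of 1 FPKM. Among PPARα and its targets 3 of 6 tested were lower and 1 higher, among them Pdk4 (-1.15 ± 0.10) and Plin2 (0.32 ± 0.06), so that Pdk4 had opposite signs in the 2 tissues. Of the chaperones Creld2 (0.32 ± 0.07) and Xbp1 (0.08 ± 0.03) were higher, and of the heat shock genes Hsph1 (0.60 ± 0.15) and Hspb1 (0.41 ± 0.12). The tRNA synthetases had 1 higher and 2 lower of 12, with Lars at -0.13 ± 0.03, Tars at 0.11 ± 0.04 and Gars at -0.09 ± 0.03. The remaining calls were Eif2b2 (0.14 ± 0.03) and Eif2ak2 (-0.16 ± 0.04) of 11, Jdp2 (-0.12 ± 0.05) of 5, Slc7a3 (-0.23 ± 0.05) of 6, Aldh1l2 (-0.26 ± 0.10) of 7 and Vldlr (-0.27 ± 0.04) of 11 tested. None of the 12 immediate early genes passed in islets.

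Beyond macrophages, the markers of other cells in liver were counted in the same fit. Shares of all genes were 35.8% higher and 6.78% lower in liver, and 16.6% and 22.0% in islets. Of 7 stromal markers 6 were higher in HFD liver (median 0.86), of 6 endothelial markers 2, of 4 tested ductal markers 1 and of 3 tested delta cell markers 1, while 3 of 4 tested beta cell, 2 of 3 tested alpha cell and 4 of 9 hepatocyte markers were lower. Summed beta cell markers reached 3775 FPKM in the liver of CD306 and 2621 FPKM in that of CD407, against a CD median of 124. The part of these CD livers in the beta and alpha cell calls was not tested. No acinar marker of 11 tested and no B cell marker of 1 tested passed, and no T cell marker was tested. In islets 5 of 10 beta cell markers were higher and 2 lower, 3 of 8 tested macrophage markers were higher, 2 of 6 endothelial markers were higher and 2 lower, 2 of 7 stromal markers were higher and 1 lower, 2 of 6 tested ductal, 1 of 4 tested B cell and 1 of 1 tested T cell markers were lower, and of 7 tested hepatocyte markers 1 was higher and 3 were lower.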

How the data were processed

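RNA of islets and liver of 48 mice was sequenced on the BGISEQ-500 after poly(A) selection and random priming. The authors deposited 1 table of FPKM per gene and library, rounded to 2 decimals. The submitters' processing notes name HISAT2 2.0.4, Bowtie2 2.2.5, RSEM 1.1.12, DESeq2 and GRCm38.p5 without their roles. The table also holds group averages, fold changes and p-values of the authors' comparisons (DEGseq in its headers), pathway terms and cluster labels, which were not used. Read counts are not given in the sources used here, so depth is unknown.

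HFD was compared with CD by limma 3.58.1 (R 4.3.3, trend and robust) on log2(FPKM + 1), which understates changes of low genes. Weekly fits used the 8 libraries of a tissue and week and genes with at least 1 FPKM in 4 of them. Fits over 6 weeks used the 48 libraries of a tissue in 12 groups, or the islet minus liver difference of each mouse, with at least 1 FPKM in 4 libraries. P-values were adjusted by Benjamini-Hochberg over all genes tested, called under 0.05, and measure the spread between mice. Islet and liver libraries pair because they carry the same mouse number. Within-group deviations of the 2 tissues of a mouse had r of -0.01 to 0.65 over 6 members. Correlations used log2(FPKM + 1) after subtracting group means, and 100000 permutations of libraries within groups. Scripts were tested on simulated data.

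Named were all members, at most 3 called genes per pathway list and tissue with the largest mean effect, the 5 genes most like each member called in a week of liver, and the 3 highest pairs per tissue. The result of 1 gene that this rule names is not reported here. Members and gene lists were chosen with earlier results of these data known. Alternatives were a pseudocount of 0.1, no filter, both, median ratio scaling, insulin left out of the islet total, limma without trend, 1 fit of all weeks, an added fold threshold of 1 (log2), leaving out each library or mouse, Spearman's rho, and fits with and without the replicate block. Promoters were from RefSeq (GRCm38.p6), which held all 10 members, with 11 windows.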

Additional observations from a re-analysis of the deposited data

Results flagged for a closer look

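Among the 240 groups of 4 mice (10 members, both tissues), 23 held 1 mouse whose gap to its nearest neighbour exceeded Dixon's 95% critical share of the range. Chance gives about 1 in 20 for independent groups of normal values. The values here were FPKM without a log, from the same 48 mice and from correlated members, so that rate may not hold. In liver 14 of these mice were high and 1 was low, and in islets 6 were high and 2 low. Atf3 accounted for 6 of them in liver, with 13.8 FPKM in CD101 and 10.2 FPKM in HFD118 at week 4, 3.52 FPKM in CD203 and 24.6 FPKM in HFD212 at week 8, 2.95 FPKM in CD306 at week 12 and 0.84 FPKM in CD403 at week 16. The same mice stood apart in other members, since liver Gdf15 was 55.3 FPKM in HFD118 and 32.5 FPKM in CD203, liver Ppp1r15a was 11.4 FPKM in CD101, liver Fgf21 was 12.8 FPKM in CD306, islet Ppp1r15a was 22.6 FPKM in HFD212 and islet Sesn2 was low at 15.3 FPKM in HFD118. The summed immediate early genes were highest of their group in the livers of these 6 mice, at 488 FPKM in CD101, 912 FPKM in HFD118, 593 FPKM in CD203, 630 FPKM in HFD212, 480 FPKM in CD306 and 200.03 FPKM in CD403, and their part in these values was not tested.

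In liver, Fgf21 was 34.2 FPKM in HFD411 at week 16, Chac1 12.5 FPKM in HFD316 at week 12, Asns 4.51 FPKM in CD507 at week 20, Trib3 4.55 FPKM in CD608 at week 24, and Atf4 was low at 35.8 FPKM in HFD511 at week 20. In islets, Ddit3 was 28.7 FPKM in HFD217 at week 8 and 46.1 FPKM in HFD516 at week 20, Atf4 163.2 FPKM in CD606 at week 24, Fgf21 5.67 FPKM in CD304 at week 12 and 2.52 FPKM in HFD511 at week 20, and Ppp1r15a was low at 11.6 FPKM in HFD416 at week 16.

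The diet effect differed between islet and liver, by the paired limma test of the difference over 48 mice, for Fgf21 (-1.64), Chac1 (-0.79), Sesn2 (-0.39) and Ddit3 (-0.38). Fgf21 had an islet median of 0.52 FPKM, near the floor of the scale. In islets the diet effect of Sesn2 differed between late and early weeks (0.41).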

How the results depend on the processing

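Of the results for single members, 382 alternatives kept direction and side of the threshold, 25 lost the call, 7 gained one and 12 changed sign; leaving out 1 library or mouse gave 2327, 66, 11 and 48. In islets, members called higher in a week numbered 1 without a filter, 1 without a filter and with a pseudocount of 0.1, 2 with insulin left out and 0 to 1 with 1 mouse left out (1 without HFD511), and those called lower 1, 1, 1 with all 12 groups in 1 fit and 0 to 1 (1 without CD304 or HFD217), against 0 and 0. In liver the 7 calls over 6 weeks became 2 with the macrophage level as a covariate, chosen after seeing the data. Calls over all 10879 genes fell from 4630 to 1931 with that covariate. The 1 islet call of late against early weeks became 0 without a filter, without a filter and with a pseudocount of 0.1, after median ratio scaling and with insulin left out, and ranged from 0 to 1 with 1 mouse left out. Pairing islet and liver by mouse mattered for 1 call: with no replicate block 3 members differed in diet effect between tissues against 4, Ddit3 being lost, and with the replicate block all 10 level differences were called, as without it. The sign changed as follows. Atf4 islet minus liver diet effect was 0.13 after median ratio scaling and 0.060 with insulin left out. In islets, Ddit3 over 6 weeks was 0.011 and 0.063, Ppp1r15a late minus early -0.049 and -0.045 under the same settings, and Atf4 late minus early -0.0035 after median ratio scaling. In liver, Ppp1r15a over 6 weeks was -0.088 after median ratio scaling, -0.19 with the immediate early covariate, where it was called, and -0.11 with the macrophage covariate, under which Trib3 was -0.078. Trib3 CD islet minus liver level was 0.088 with insulin left out. With 1 mouse left out, sign also changed for islet Fgf21 over 6 weeks (-0.11 to 0.0053) and liver Ppp1r15a late minus early (-0.025 to 0.16), besides islet Ddit3 over 6 weeks (-0.051 to 0.018), liver Ppp1r15a over 6 weeks (-0.042 to 0.050), islet Ppp1r15a (-0.038 to 0.049) and Atf4 (-0.041 to 0.12) late minus early and the Atf4 diet effect difference (-0.063 to 0.032). The cause was not tested. Median ratio scaling moved the median of all genes by over 0.1 in islets at week 8 (-0.11 to 0.01) and in liver at week 4, 12 and 16, and leaving out insulin did so in islets at week 12 (0.01 to 0.19) and 16 (0.01 to 0.14). Depth is unknown, so values under 1 FPKM have no counting error.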
